A study of Mus musculus with 12 samples.

Results

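The 9 genes Fos, Fosb, Fosl1, Fosl2, Jun, Junb, Jund, Atf3 and Batf, which encode subunits of the transcription factor AP-1, were examined in ATAC-seq peak lists from transformed mouse embryonic fibroblasts (MEFs). ATAC-seq marks open chromatin as the places where the transposase Tn5 can cut. All peaks that overlapped the body of one of these genes, or the 50 kb on either side of it, were taken, and peaks of different lists that overlapped by at least 1 bp were merged into loci. This gave 146 loci from 754 peaks, of 147985 loci from 535411 peaks in the whole series. A locus is called open in a list if that list has a peak there. It is called closed with a treatment if only the untreated list has the peak, opened if only the treated list has it, and kept if both do.

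The MEFs came from embryos at day E13.5 and were labelled as OG2 MEFs, a strain with an Oct4-GFP reporter. The methods of the study also place this assay in the OG2 lines, although the culture notes of the labels name an ICR background. They carried introduced genes and formed 3 transformed lines. Hdac7SA.Mef2d cells received a form of the histone deacetylase Hdac7 and the transcription factor Mef2d, Hras.E1A cells an Hras oncogene and adenoviral E1A, and Hras.Myc cells the Hras oncogene and Myc. The labels write the Hras lines as Ras.E1A and Ras.Myc, and they do not say whether a line is a clone. Both Hras lines were also treated for 2 days with PD (PD0325901), an inhibitor of the kinase MEK, or with TSA (trichostatin A), an inhibitor of histone deacetylases. The 12 samples fell into 7 groups, with 2 libraries each except for a single library in each TSA group. Of these lines, the study describes Hdac7SA.Mef2d as able to form pluripotent cells on reprogramming, Hras.E1A as able to do so only with PD, and Hras.Myc as unable to. The TSA groups and the PD groups of a line are compared with the same untreated list, so these comparisons are not independent.

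AP-1 is a dimer of basic leucine zipper (bZIP) proteins. A protein of the Fos family pairs with a protein of the Jun family and binds the sequence TGACTCA, while Jun can also pair with itself or with relatives such as Atf3 and Batf. Fos and Jun are classical immediate early genes. Growth factors that signal through Ras, Raf, MEK and ERK switch on Fos through serum response factor (SRF) and its ETS-domain partners, and ERK also stabilises Fos-family proteins, so that Hras-transformed fibroblasts are a well-known setting of high AP-1 activity. The comparisons below describe where chromatin at these genes was open in each line and whether it changed when MEK or the histone deacetylases were inhibited.

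Each group had 1 pooled list, so there are no replicate values and no test across replicates, and every share below is a description of these lists. Its 95% interval is an exact Clopper-Pearson interval that covers counting error over loci only. The lists held 56774 to 119251 peaks, each 400 bp wide and with a score of at least 1.2, whose scale the study does not state. The read depth is unknown, so reads may be present at a locus that has no peak, and fewer cells with an open locus cannot be told apart from less open chromatin in each cell. The labelled cell type was checked at the promoters of 9 fibroblast marker genes, of which 6 to 9 were open in each list. Promoters of the epithelial markers Epcam, Cdh1, Krt8 and Krt18 were open too, 3 to 4 of 4 in each list. Of 4 endothelial markers 1 to 3 were open and Cdh5 in none, and of 5 blood and macrophage markers 1 to 2 were open, with Ptprc, Adgre1 and Spi1 in none. The part of other cells in the results below was not tested.

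The sequences that the results turn on are the proximal promoters of Fos and Jun, which were open in all 7 lists, and 5 loci with an AP-1 motif that lost their peak with PD in both Hras lines, of 10 loci that did so. All are from the GRCm38 assembly (mm10), 5′ to 3′ on the strand of the gene. The promoter stretches end at the base before the transcription start site (TSS). The Fos stretch is chr12:85473710-85473889 on the plus strand, and the Jun stretch is chr4:95052223-95052391 on the minus strand. Capitals mark the nearest matches to the cyclic AMP response element (CRE), a site of the Creb and Atf relatives of AP-1 with the consensus TGACGTCA.
Fos promoter: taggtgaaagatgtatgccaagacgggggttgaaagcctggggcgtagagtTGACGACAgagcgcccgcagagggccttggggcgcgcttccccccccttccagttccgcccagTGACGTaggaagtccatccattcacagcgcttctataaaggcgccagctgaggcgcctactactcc
Jun promoter: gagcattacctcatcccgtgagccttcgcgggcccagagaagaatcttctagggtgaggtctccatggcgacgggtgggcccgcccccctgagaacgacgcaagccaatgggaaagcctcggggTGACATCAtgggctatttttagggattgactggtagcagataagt
The Jun stretch holds TGACATCA, which differs from the CRE consensus by G5A, with positions counted from 1 at the 5′ end of the motif. The Fos stretch holds TGACGACA, which differs by T6A, and further downstream the hexamer TGACGT, the first 6 bases of the CRE. Neither stretch holds TGACTCA, an exact CRE, the CArG box bound by SRF, the ETS motif CCGGAAG or the TEAD motif ACATTCC, on either strand, which says only that these letters are not in this window.

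The 5 PD-closed loci with an AP-1 motif are shown by their central 300 bases, with the motif TGACTCA, or TGAGTCA when it lies on the other strand, in capitals. They are in an intron of Fosl2 (chr5:32146261-32146560, plus strand), downstream of Batf and within the gene Flvcr2 (chr12:85754616-85754915, plus strand), and upstream of Atf3 (chr1:191222070-191222369, minus strand), Jun (chr4:95084054-95084353, minus strand) and Fosb (chr7:19316860-19317159, minus strand). The locus downstream of Batf also holds an exact CRE, TGACGTCA, in capitals.
Fosl2 intron: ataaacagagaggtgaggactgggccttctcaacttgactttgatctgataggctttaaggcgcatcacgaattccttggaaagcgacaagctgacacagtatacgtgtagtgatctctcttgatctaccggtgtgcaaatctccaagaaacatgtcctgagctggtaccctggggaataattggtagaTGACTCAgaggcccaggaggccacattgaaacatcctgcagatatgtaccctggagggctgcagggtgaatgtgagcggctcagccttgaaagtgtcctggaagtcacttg
Batf downstream: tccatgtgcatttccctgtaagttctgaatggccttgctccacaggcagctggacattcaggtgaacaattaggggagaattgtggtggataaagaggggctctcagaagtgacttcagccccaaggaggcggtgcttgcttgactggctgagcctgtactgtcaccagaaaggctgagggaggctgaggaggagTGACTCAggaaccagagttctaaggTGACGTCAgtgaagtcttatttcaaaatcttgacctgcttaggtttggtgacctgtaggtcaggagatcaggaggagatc
Atf3 upstream: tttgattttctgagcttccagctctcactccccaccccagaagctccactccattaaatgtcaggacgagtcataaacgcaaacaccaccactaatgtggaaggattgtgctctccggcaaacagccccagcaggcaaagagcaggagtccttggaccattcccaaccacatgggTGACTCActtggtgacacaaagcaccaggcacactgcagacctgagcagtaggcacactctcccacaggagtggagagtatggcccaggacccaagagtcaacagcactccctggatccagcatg
Jun upstream: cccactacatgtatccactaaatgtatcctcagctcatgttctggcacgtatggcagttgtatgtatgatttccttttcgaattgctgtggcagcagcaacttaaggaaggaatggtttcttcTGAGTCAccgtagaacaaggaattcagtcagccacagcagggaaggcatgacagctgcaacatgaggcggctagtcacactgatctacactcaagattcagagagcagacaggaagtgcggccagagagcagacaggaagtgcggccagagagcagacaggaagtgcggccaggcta
Fosb upstream: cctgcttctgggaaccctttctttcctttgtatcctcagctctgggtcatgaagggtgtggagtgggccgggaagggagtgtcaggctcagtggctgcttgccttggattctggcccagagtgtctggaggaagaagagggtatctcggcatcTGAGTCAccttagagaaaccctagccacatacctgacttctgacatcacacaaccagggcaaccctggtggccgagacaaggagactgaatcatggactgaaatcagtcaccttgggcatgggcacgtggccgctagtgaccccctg
Each of these 5 loci has a single AP-1 motif in the window.

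Loci were unevenly spread over the genes. Junb and Fosb had 21 loci each, Atf3 20, Fosl1 18, Jun 17, Fos 14, Batf 13, and Fosl2 and Jund 11 each. By position 12 were promoter loci, within 1000 bp of a TSS of the gene itself, 9 were intronic, 1 was exonic, 55 lay in the upstream flank and 69 in the downstream flank. Fos, Fosl2, Jun and Atf3 have few neighbours, and none of their loci was within 1000 bp of the TSS of another coding gene. Fosl1, Junb, Fosb, Jund and Batf had 28 such loci together, most of them at Fosl1 (9), Junb (8) and Fosb (7). Over the 9 genes the nearest coding TSS was that of the AP-1 gene itself for 64 of 146 loci, and 43 lay within the body of another named coding gene. Position is therefore the only link between many of these loci and the AP-1 gene.

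**Figure D1:**
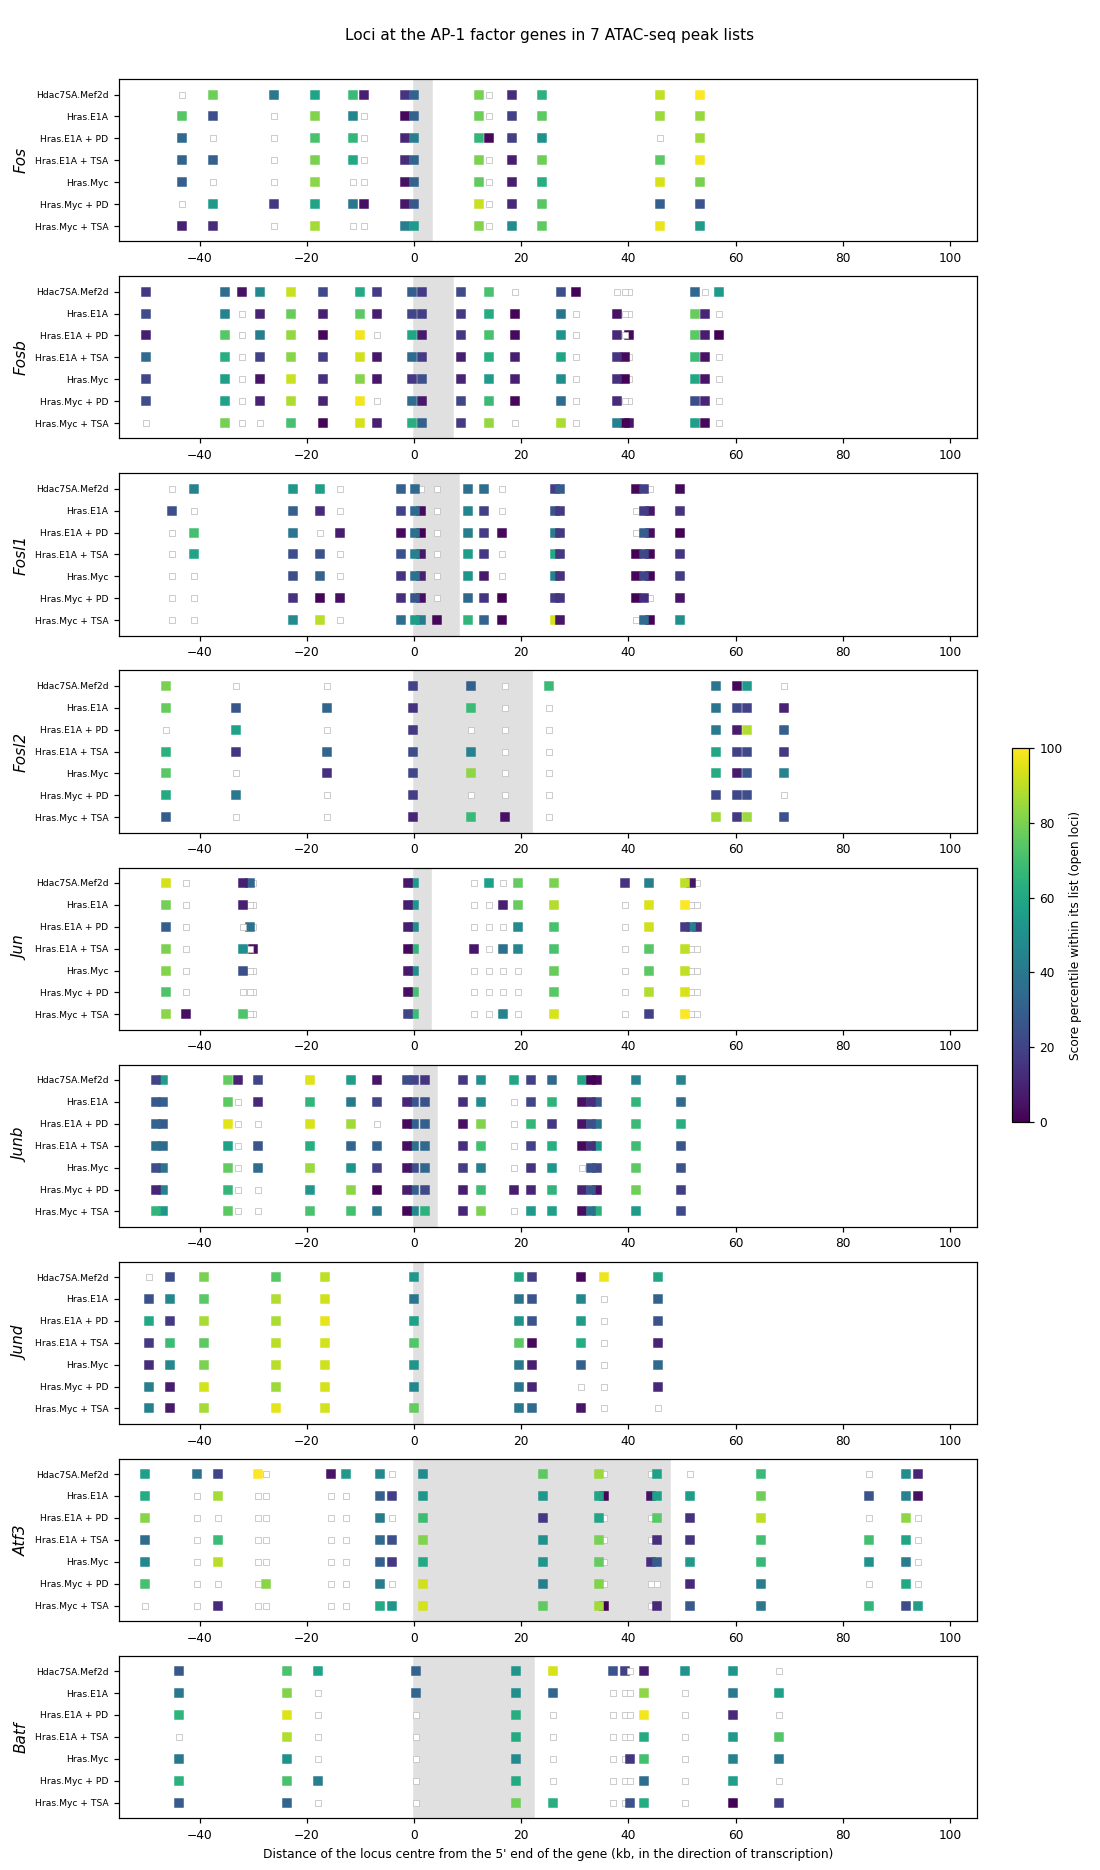
Each panel shows the loci of a gene by the distance of their centre from the 5′ end of the gene (x axis, kb) in the 7 peak lists (y axis). Filled squares are open loci coloured by the percentile of their score within the list, empty squares are loci with no peak, and grey is the gene body. Most columns at Junb and Jund are filled in all 7 lists, while Atf3 and Batf have columns filled in Hdac7SA.Mef2d only and columns empty with PD.

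Loci at the AP-1 genes were open whatever the line or treatment more often than loci elsewhere. In all 7 lists 69 of the 146 were open (47.3%, 38.9 to 55.7%), against 20.2% of all loci and 23.6% of all loci within 50 kb of coding genes. Promoter loci were a larger part of the 146, with 12 at these genes and 28 at other genes, against 17049 of all 147985 loci. By position, 10 of the 12 promoter loci of these genes were open in all lists. In introns these were 4 of 9, in exons 0 of 1, in the upstream flanks 21 of 55 and in the downstream flanks 34 of 69. The flanks include promoters of other genes, and no such split is given for all loci. The part that promoters have in the share was therefore not tested. The share was highest at Junb, with 16 of 21, and Jund, with 7 of 11. At Jun 6 of 17 were open in all lists, at Atf3 6 of 20 and at Batf 4 of 13. By list, 115 of the 146 were open in Hdac7SA.Mef2d. Hras.E1A had 110 open without treatment, 98 with PD and 108 with TSA, and the numbers for Hras.Myc were 102, 96 and 104.

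Promoter loci of all 9 genes were open in Hdac7SA.Mef2d and Hras.E1A cells, and those of 8 genes in each of the other 5 lists. The exception was Batf, a partner of Jun best known from lymphocytes. Its promoter locus (chr12:85686792-85687191) scored 4.04 in Hdac7SA.Mef2d and 4.64 in Hras.E1A and had no peak in Hras.E1A with PD or TSA, or in any Hras.Myc list. Atf3, a stress-induced partner of Jun, has 2 annotated start sites. The locus at its inner start site (chr1:191183307-191183706) was open in all lists and scored 6.75 to 10.7, the highest of the 12 promoter loci in every list but Hras.E1A with PD, where it scored 7.59 beside 7.64 at Fosb. A weaker locus 774 bp downstream of that site was open in untreated Hras.E1A (1.38) and in Hras.Myc with TSA (1.24) and in no other list.

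Among the Fos-family genes, the Fos promoter locus (chr12:85473660-85474059) scored 4.01 in Hdac7SA.Mef2d. Hras.E1A cells had a score of 4.50 there without treatment, 5.84 with PD and 4.23 with TSA, and Hras.Myc cells had 4.54, 4.23 and 5.21. The scores in the 3 untreated lists were thus close to each other, and neither inhibitor went with a higher score in both lines or a lower score in both. As percentiles within the lists, the Hras.E1A values were 31.5 untreated, 42.1 with PD and 32.4 with TSA. Those of Hras.Myc were 31.0, 27.2 and 54.4, so with TSA the percentile was higher in both lines. Fosb had an upstream promoter locus with higher scores with either inhibitor. It scored 3.47 untreated, 7.64 with PD and 4.41 with TSA in Hras.E1A, and 3.12, 4.87 and 6.17 in Hras.Myc. The other Fosb promoter locus, at an inner start site, had lower scores with either inhibitor. It scored 3.14 untreated, 2.10 with PD and 2.95 with TSA in Hras.E1A, and 3.90, 2.07 and 3.38 in Hras.Myc. Its percentile was lower with PD in both lines, at 6.74 beside 17.9 in Hras.E1A and 6.62 beside 24.5 in Hras.Myc. With TSA it was 17.2 in Hras.E1A and higher than untreated, at 30.3, in Hras.Myc. Fosl1 encodes Fra-1, a Fos-family protein abundant in Ras-transformed cells. Its promoter locus scored 4.20 to 5.31 over the 7 lists. That of Fosl2, which encodes Fra-2, scored 2.13 to 3.52.

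In the Jun family, the Jun promoter locus over the TSS (chr4:95052042-95052441) scored 5.88 to 7.44 and that of Jund, the constitutively expressed member, 5.17 to 8.24. The Junb promoter locus scored 3.10 to 4.67. Jun had a weaker promoter locus upstream, between 1.43 and 2.78. All of these were open in every list, but when lists were cut to equal size only 3 of the 9 genes kept an open promoter in Hdac7SA.Mef2d. That cut left 56774 of the 119251 peaks of this list, and how many of all promoters stayed open is not given. Scores at the promoters of the 9 genes were low for promoters. The median percentile of the 9 genes' promoter loci was 28.7 in Hras.E1A and 27.8 in Hras.Myc, against 48.3 and 50.0 for all promoter loci of the same lists. With PD the medians were 39.1 and 28.7, against 54.7 and 53.6, and with TSA 35.6 and 54.4, against 55.5 and 68.7.

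**Figure D2:**
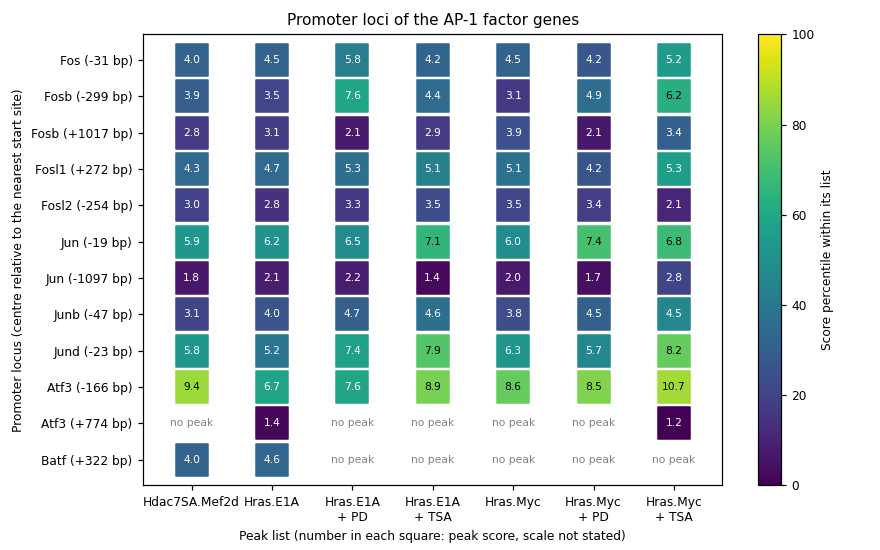
Score percentile within its list (colour) and score (number) of the 12 promoter loci (y axis, with the distance of the centre from the nearest start site) in the 7 peak lists (x axis). Promoter loci of 8 genes have a peak in all lists, the Batf promoter locus only in Hdac7SA.Mef2d and Hras.E1A, and a minor Atf3 locus only in Hras.E1A and Hras.Myc with TSA.

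The untreated lines shared a larger part of the loci at these genes than of all loci. Of the 135 loci open in any untreated list, 85 were open in all 3 (63.0%, 54.2 to 71.1%), against 36.7% of all such loci. The shares in this paragraph were not split by promoter, except the next. Of the 115 loci open in Hdac7SA.Mef2d, 22 were open in neither untreated Hras line (19.1%, 12.4 to 27.5%), against 42.6% of all loci. This was 22.8% (14.7 to 32.8%) without promoters of other genes and 21.2% (13.8 to 30.3%) without those of the 9 genes. No share of all loci without promoters is given for it. Loci open only in Hras.E1A were 4 of 110 (3.64%, 1.00 to 9.05%), against 6.85%, and those open only in Hras.Myc were 2 of 102 (1.96%, 0.238 to 6.90%), against 6.21%. Both Hras lines, but not Hdac7SA.Mef2d, had a peak at 14 of the 135 (10.4%, 5.79 to 16.8%), against 7.0%. Only Hdac7SA.Mef2d, of all 7 lists, had a peak at 14 of the 146 loci (9.59%), against 24.0% of all loci. The strongest of these was 29066 bp upstream of Atf3 (chr1:191246906-191247305), where the score was 18.1. Atf3 had 3 more of this kind in its upstream flank, at 12645, 15479 and 40544 bp, which scored 5.88, 1.70 and 4.50, and all 4 hold an AP-1 motif. Of all 14 such loci 5 hold it (35.7%, 12.8 to 64.9%), against 21.4% of all loci of the kind. At Jund, such a locus 35365 bp downstream scored 13.3.

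Inhibition of MEK closed a smaller share of loci at the AP-1 genes than in the whole of the lists. In Hras.E1A, PD closed 21 of 110 loci (19.1%, 12.2 to 27.7%), against 38.9% of all loci and 36.4% of all loci within 50 kb of coding genes. In Hras.Myc it closed 17 of 102 (16.7%, 10.0 to 25.3%), against 38.4% and 36.6%. Of all promoter loci in the series, PD closed 6.98% and 7.16% in the same lines. Away from the promoters of any coding gene, PD closed 18 of 73 AP-1 gene loci in Hras.E1A (24.7%, 15.3 to 36.1%), against 46.3% of all such loci. In Hras.Myc this was 15 of 67 (22.4%, 13.1 to 34.2%), against 46.9%. The intervals of the AP-1 gene loci lie below the shares of all loci in both lines. For the loci whose nearest coding TSS was that of an AP-1 gene, PD closed 13 of 47 in Hras.E1A (27.7%, 15.6 to 42.6%), an interval that includes the 38.9% of all loci, and 7 of 39 in Hras.Myc (17.9%, 7.54 to 33.5%). In gene bodies and promoters alone it closed 4 of 20 (20%, 5.73 to 43.7%) and 3 of 18 (16.7%, 3.58 to 41.4%), and both intervals include the shares of all loci. These genes are 9 neighbourhoods, however, and loci in a neighbourhood are not independent. When the lowest-scoring 25% of each list was left out, PD closed 30.2% in Hras.Myc (19.2 to 43.0%), beside 43.0% of all loci.

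PD opened 9 of 36 loci in Hras.E1A (25.0%, 12.1 to 42.2%), against 14.9% of all loci, and 11 of 44 in Hras.Myc (25.0%, 13.2 to 40.3%), against 18.4%. Both intervals include the share of all loci. With all lists cut to the size of the shortest, these shares were 52.4% (39.4 to 65.1%) and 63.8% (48.5 to 77.3%), and both intervals then lay above the 31.5% and 31.7% of all loci. After that cut, a locus whose untreated peak scored below it counts as not open. These shares thus include loci that had a peak in the full untreated list. The TSA shares were smaller for closing. TSA closed 7 of 110 loci in Hras.E1A (6.36%, 2.60 to 12.7%), against 15.8%, and 9 of 102 in Hras.Myc (8.82%, 4.11 to 16.1%), against 16.4%. It opened 5 of 36 in Hras.E1A (13.9%, 4.67 to 29.5%), against 16.7%, and 11 of 44 in Hras.Myc (25.0%, 13.2 to 40.3%), against 17.7%. These TSA results depended on the weak peaks. Without the lowest-scoring 25% of each list, TSA closed 13.2% (6.23 to 23.6%) in Hras.E1A, against 20%, and 22.2% (12.7 to 34.5%) in Hras.Myc, against 21.7%, and it opened 48.0% (33.7 to 62.6%) in Hras.Myc, against 17.9%. Here too a locus counts as not open if its untreated peak was among those left out. With lists of equal size TSA closed 13.1% (5.84 to 24.2%) and 18.2% (10.3 to 28.6%), against 20.2% and 22.0%. The intervals for closing thus included the shares of all loci at both settings.

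**Figure D3:**
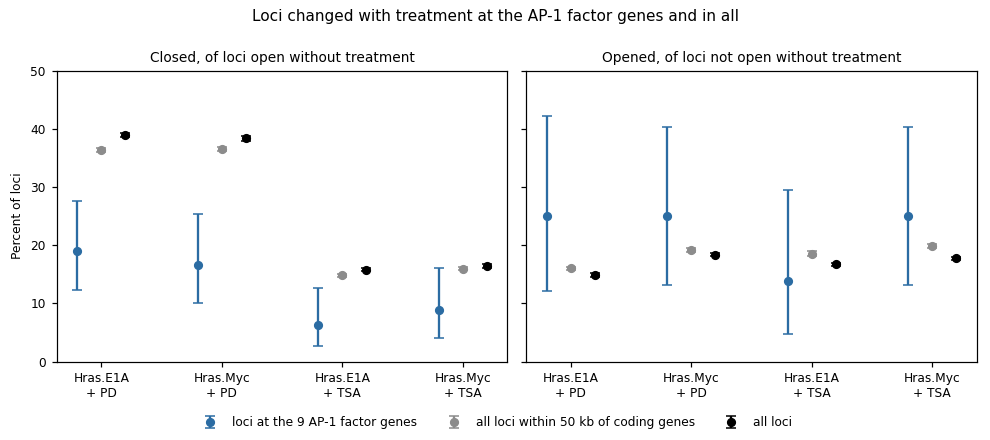
Percent of loci (y axis) closed (left, of loci open without treatment) and opened (right, of loci not open without treatment) in the 4 treated lists (x axis). Points are the loci at the 9 AP-1 genes, all loci within 50 kb of coding genes and all loci, and bars are exact 95% intervals for counting error. The closed shares with PD are 19.1% and 16.7% at the AP-1 genes and 38.9% and 38.4% over all loci. The intervals for opened loci include the shares of all loci. With PD they do not when lists are cut to equal size, where loci with a weaker untreated peak count as not open.

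The counts of single genes were small and their intervals overlap. At Atf3, PD closed 6 of 15 loci in Hras.E1A and 5 of 13 in Hras.Myc, at Fosl2 3 of 9 and 3 of 8, and at Batf 3 of 8 and 2 of 7. These shares lie between 28.6% and 40.0%, beside the 38.9% and 38.4% of all loci. At the Jun-family genes the counts of closed loci were low. Jund closed 0 of 10 in Hras.E1A, which allows a share of up to 30.8% by the exact interval, and 1 of 10 in Hras.Myc. Junb closed 2 of 19 and 1 of 18, and Jun 2 of 9 and 1 of 7. Of the other Fos-family genes, Fos closed 2 of 11 and 1 of 9, Fosb 1 of 16 and 2 of 17, and Fosl1 2 of 13 and 1 of 13. Summed by family, PD closed 8 of 49 loci of the Fos family in Hras.E1A (16.3%, 7.32 to 29.7%) and 7 of 47 in Hras.Myc (14.9%, 6.20 to 28.3%). It closed 4 of 38 (10.5%, 2.94 to 24.8%) and 3 of 35 (8.57%, 1.80 to 23.1%) of the Jun family, and 9 of 23 (39.1%, 19.7 to 61.5%) and 7 of 20 (35.0%, 15.4 to 59.2%) at Atf3 and Batf.

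Over all coding genes with at least 5 open loci in the same windows, the median share closed with PD was 28.6% in Hras.E1A (15433 genes) and 30.0% in Hras.Myc (14318 genes). The median of the 9 AP-1 genes was 18.2% and 11.8%. Atf3 had a larger closed share than 70.1% and 66.4% of coding genes, and Fosl2 than 55.4% and 63.6%. Junb lay above 12.9% and 7.33%. Other genes in its window, such as Hook2, Rnaseh2a and Best2, have promoters there, and 8 of the 21 Junb loci were within 1000 bp of such a start site.

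**Figure D4:**
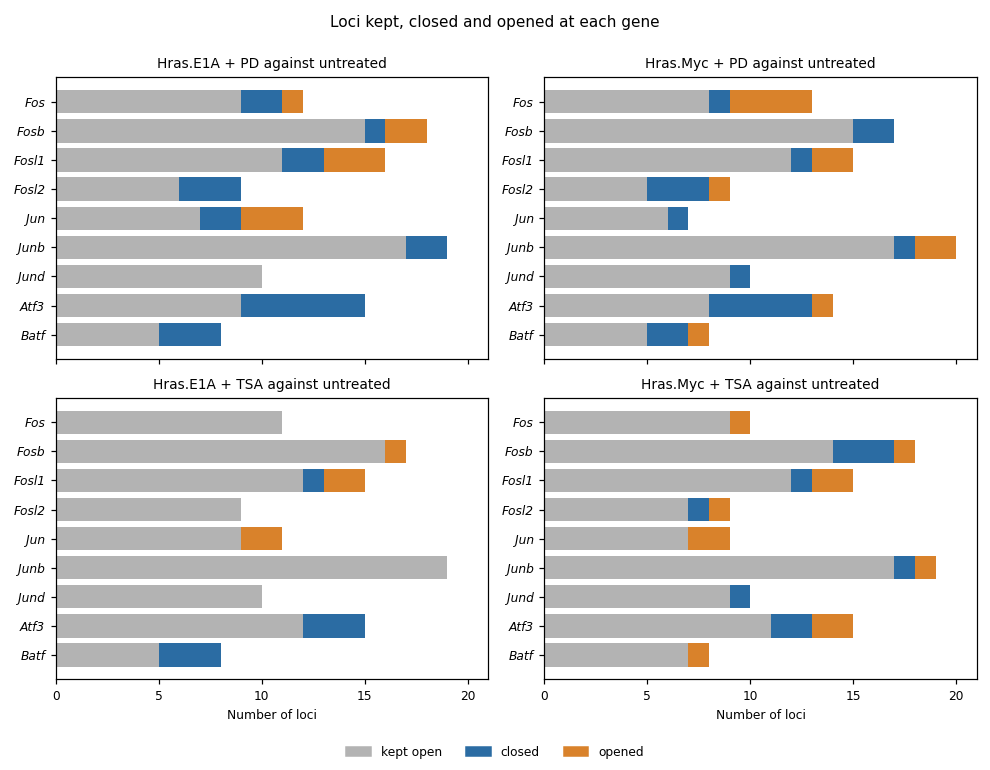
Number of loci (x axis) kept, closed and opened at each AP-1 gene (y axis) with each treatment of each Hras line. With PD, Atf3 has the most closed loci in both lines (6 and 5), Jund has 0 and 1, and Fos has 4 opened in Hras.Myc.

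Closing with PD was seen in both lines at 10 of the 99 loci open in both untreated Hras lists (10.1%, 4.95 to 17.8%), against 24.4% of all such loci. Of the 10, 4 were at Atf3, 2 at Fosl2, and 1 each at Fosb, Jun, Junb and Batf, and none was at Fos, Fosl1 or Jund. TSA left 7 of the 10 open in both lines (70.0%, 34.8 to 93.3%), near the 74.7% of all loci with this pattern. In Hdac7SA.Mef2d 5 of the 10 were open (50.0%, 18.7 to 81.3%), against 61.8%. An AP-1 motif was in 5 of the 10, the same share and interval, against 66.4% of all such loci.

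The highest untreated scores among them were 36577 bp upstream of Atf3 (chr1:191254417-191254816), at 10.0 in Hras.E1A and 10.9 in Hras.Myc. That locus had no peak with PD in either line, scored 7.41 and 2.25 with TSA, and was open in Hdac7SA.Mef2d with a score of 3.09. It holds none of the 5 motifs. Its untreated scores ranked at percentiles 86.5 and 89.4 of their lists. The locus in the Fosl2 intron shown above, 10609 bp downstream of the TSS, scored 7.64 and 9.54 in the untreated Hras.E1A and Hras.Myc lists. It had no peak with PD, scored 5.21 and 6.71 with TSA, and 3.94 in Hdac7SA.Mef2d. A second Fosl2 locus, 16218 bp upstream, scored 4.58 and 2.76 in the untreated lines, and it had no peak with PD in either line, with TSA in Hras.Myc, or in Hdac7SA.Mef2d.

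At the sequence shown downstream of Batf, Hras.E1A scored 6.63 without treatment and 8.01 with TSA, and Hras.Myc scored 5.30 and 2.68, with no peak with PD or in Hdac7SA.Mef2d. This is nearer to Flvcr2, which encodes a transporter, than to Batf. The locus shown 4180 bp upstream of Atf3 scored 3.19 and 3.02 untreated, 3.50 and 5.03 with TSA, and had no peak in the other 3 lists. Scores at the locus shown 31981 bp upstream of Jun were higher in the TSA lists, at 5.62 beside 2.08 untreated for Hras.E1A and 7.57 beside 3.88 for Hras.Myc, and in Hdac7SA.Mef2d it scored 1.97. Near Fosb, the locus shown 6958 bp upstream scored 2.06 and 1.85 untreated, near the lower limit of the lists, and 1.82 and 2.00 with TSA. The others were 2 loci at Atf3, in an intron (1.66 and 2.69 untreated, no peak in any other list) and 84906 bp downstream of its 5′ end (3.92 and 6.16), and a locus 29146 bp upstream of Junb within Best2 (2.45 and 4.88).

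PD opened 2 loci in both lines, both at Fosl1 and both weak. The locus 13736 bp upstream of Fosl1 scored 2.28 and 1.71 in the PD lists of Hras.E1A and Hras.Myc and had no peak in the other 5 lists. The locus 16414 bp downstream, within the gene Fibp, scored 1.49 and 1.24, and 1.30 in Hras.Myc with TSA. Over all loci open in neither untreated line, 6.71% opened with PD in both, against 2 of 33 here (6.06%, 0.743 to 20.2%).

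Fos itself had 4 loci opened with PD in Hras.Myc, all in its upstream flank, of 5 not open before (80%, 28.4 to 99.5%), against 18.4% of all loci. Fos was singled out after the data had been seen. Without Fos, PD opened 17.9% of the loci of the other genes in Hras.Myc (7.54 to 33.5%). In Hras.E1A, 1 of 3 opened. They were 37513, 26154, 11445 and 9248 bp upstream and scored 6.18, 3.23, 5.16 and 1.76. All 4 were open in Hdac7SA.Mef2d, at 8.33, 4.75, 7.18 and 1.98. For Hras.E1A, those at 37513 and 11445 bp were open without treatment, at 3.79 and 5.72, and with PD the former had no peak and the latter scored 8.45. Hras.Myc cells with PD thus had a peak at 7 of the 8 loci from the promoter of Fos upstream, all but the most distal, 43357 bp upstream, which PD closed (4.44 untreated). No AP-1 motif was found in the 7 loci upstream of Fos.

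The strongest other loci of each gene had a peak in most lists, except for the Atf3 locus 29066 bp upstream, with a peak in Hdac7SA.Mef2d only. At Jun the locus 50604 bp downstream of the 5′ end (chr4:95001419-95001818) scored 18.0, 3.37 and 11.3 in Hras.E1A untreated, with PD and with TSA, and 11.2, 10.9 and 23.2 in Hras.Myc. In Hdac7SA.Mef2d it scored 10.4, so that its lowest score was in Hras.E1A with PD. The Jun locus 26106 bp downstream scored 7.75 to 14.6 in the 7 lists. At Fos the locus 45856 bp downstream scored 9.74 in untreated Hras.E1A and had no peak with PD, while Hras.Myc had 12.5 untreated and 4.49 with PD. It holds 2 AP-1 motifs. The next locus, 53343 bp downstream, scored 9.69 untreated, 12.0 with PD and 15.6 with TSA in Hras.E1A, and 9.08, 4.16 and 5.24 in Hras.Myc. These downstream Fos loci were open in Hdac7SA.Mef2d at 10.5 and 16.1.

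Fosb and Batf had loci with higher scores in PD lists. The Fosb locus 10069 bp upstream scored 18.6 with PD, 12.2 with TSA and 8.35 untreated in Hras.E1A. In Hras.Myc it scored 13.1, 14.3 and 9.34, so its scores were higher with TSA too. The Fosb locus 22899 bp upstream scored 7.20 to 11.7 in the 7 lists. At Batf, the locus 42884 bp downstream of the 5′ end scored 19.4 with PD beside 9.42 untreated in Hras.E1A, but 4.88 beside 7.90 in Hras.Myc. The Batf locus 23654 bp upstream scored 15.5 beside 9.17, and 7.51 beside 6.17. Junb had loci 34695 bp upstream, at the promoter of Best2, and 19341 bp upstream, within Hook2. They scored 16.2 and 15.1 in Hras.E1A with PD, from 8.34 and 7.41 untreated. In Hras.Myc they scored 7.08 and 6.15 with PD, from 8.52 and 9.91. The strongest other loci were named for having the highest score in any list. For most this list was either Hras.E1A with PD or Hras.Myc with TSA, so a higher score there follows from that choice. Over all kept loci the scores in Hras.E1A with PD were also higher than untreated, by a median of 0.21 on the log2 scale. In Hras.Myc with TSA that median was -0.04. At Jund the locus 16559 bp upstream scored 10.4 to 16.6 and the locus 25676 bp upstream, at the promoter of Lsm4, 7.80 to 16.4. The Atf3 locus 1730 bp downstream of its outer start site scored 6.30 untreated, 8.83 with PD and 9.17 with TSA in Hras.E1A. In Hras.Myc it scored 6.98, 10.7 and 14.0. Fosl1 loci 17541 bp upstream and 26325 bp downstream scored highest in Hras.Myc with TSA, at 12.2 and 14.4, from 4.57 and 5.71 untreated. The downstream locus is at the promoter of Efemp2. The Fosl2 loci 62107 and 56401 bp downstream scored 12.6 in Hras.E1A with PD and 10.8 in Hras.Myc with TSA at their highest. Because the scale of the score may differ between lists, these values are set side by side as they stand.

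Scores were also ranked as percentiles within each list, but the lists differ in length, so a change in percentile depends on it. At the 89 loci kept with PD in Hras.E1A the median percentile moved by 2.59 points (95% interval of the median by order statistics, -0.85 to 10.1), against 1.09 over all kept loci. With lists of equal size this was 22.7 points (15.2 to 32.9), against 11.3. In Hras.Myc it moved by -2.14 points (-5.22 to 2.17) at 85 loci, against 0.05, and with lists of equal size it moved the other way, by 6.13 points (1.02 to 11.9), against 6.0. With TSA it moved by 2.71 points (0.35 to 6.50) at 103 loci in Hras.E1A, against 1.07, and by 9.52 points (2.64 to 17.3) at 93 loci in Hras.Myc, against 2.59. With TSA in Hras.Myc all promoter loci moved by 11.4 points, and the 61 AP-1 gene loci at no promoter of a coding gene moved by 5.89 (-3.15 to 15.6), an interval that includes the -0.15 of all loci at no promoter.

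By position, PD in Hras.E1A closed 11 of 40 open loci in the upstream flanks, 6 of 50 in the downstream flanks, 2 of 8 in introns and 2 of 12 at promoters. In Hras.Myc it closed 7 of 36, 7 of 48, 3 of 8 and 0 of 10. At promoters this was 16.7% (2.09 to 48.4%) and 0% (0 to 30.8%), against 6.98% and 7.16% of all promoter loci. No share over all loci is given for flanks and introns. Closed loci were farther from genes, with a median of 10410 bp to the nearest coding TSS in Hras.E1A against 2209 bp at kept loci, and 8788 against 2155 bp in Hras.Myc. Over all loci these medians were 33698 against 13548 bp and 28662 against 10862 bp. They were also poorer in G and C, with a median GC content of 51.3% beside 58.7% at kept loci for Hras.E1A, and 52.7% beside 59.0% for Hras.Myc. The difference in GC content was also seen over all loci, with 47.0% and 52.3% in Hras.E1A and 48.0% and 53.3% in Hras.Myc. Kept loci were more often open in Hdac7SA.Mef2d, 79 of 89 and 79 of 85, than closed ones, 13 of 21 and 7 of 17. Over all loci, 90.1% and 91.9% of kept loci and 67.2% and 59.3% of closed loci were open there, so each of these contrasts was shared with the lists as a whole.

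AP-1 motifs were searched in the middle 300 bp of a locus as TGACTCA on either strand. They occurred in 35 of the 146 loci (24.0%, 17.3 to 31.7%), close to the 27.0% of all loci. Every AP-1 gene had at least 1 such locus, from 1 at Jund to 8 at Atf3, and 1 of the 12 promoter loci, that of Fosl1, held the motif. In Hras.E1A with PD, the motif was in 12 of 21 closed loci (57.1%, 34.0 to 78.2%), against 13 of 89 kept loci (14.6%, 8.01 to 23.7%). The shares over all loci were 55.3% and 16.1%. In Hras.Myc, 7 of 17 closed loci held it (41.2%, 18.4 to 67.1%) and 17 of 85 kept loci (20%, 12.1 to 30.1%), against 52.9% and 21.1% over all loci. None of the 9 or 11 opened loci did, which allows shares of up to 33.6% and 28.5%, against 6.11% and 8.25% of all opened loci. With all peaks, loci at the AP-1 genes thus had an AP-1 motif about as often as other loci of the same fate, within their intervals. The contrast between closed and kept loci depended on the weak peaks in Hras.Myc. Without the lowest-scoring 25% of each list, the motif was in 21.1% of closed loci there (6.05 to 45.6%) and in 25.0% of kept loci (13.2 to 40.3%). In Hras.E1A these shares were 40% (16.3 to 67.7%) and 16.98% (8.07 to 29.8%). No share over all loci is given for the motif at that setting.

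**Figure D5:**
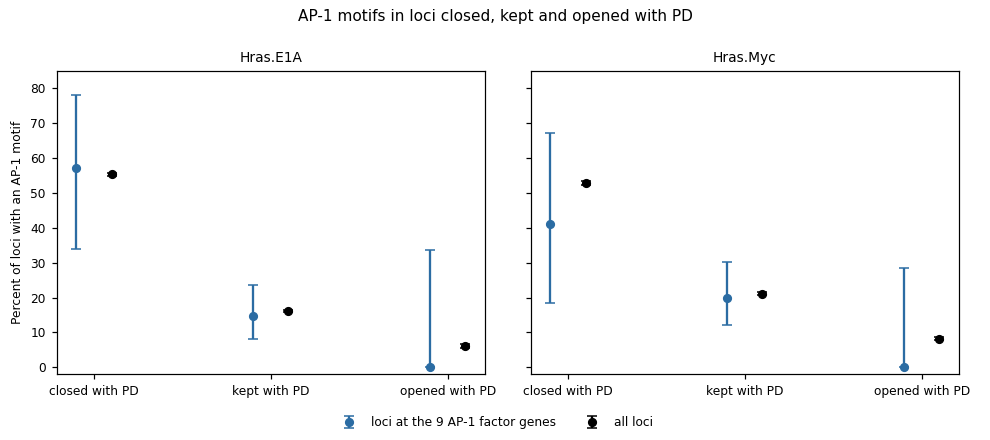
Percent of loci with an AP-1 motif (y axis) among loci closed, kept and opened with PD (x axis) in Hras.E1A (left) and Hras.Myc (right), at the 9 AP-1 genes and over all loci. Bars are exact 95% intervals for counting error. The motif was in 57.1% and 41.2% of closed loci at the AP-1 genes and in none of the opened ones.

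The other motifs were rarer. The ETS motif CCGGAAG was in 12 of the 146 loci (8.22%, 4.32 to 13.9%), against 2.88% of all loci, and away from promoters of coding genes in 7 of 106 (6.6%, 2.70 to 13.1%), against 1.5%. Fosl1 had 5 of the 12, of which 4 were at promoters of other genes. TEAD motifs were in 9 loci (6.16%, 2.86 to 11.4%), against 9.39%. The CArG box was in 6 of the 146 loci (4.11%, 1.52 to 8.73%), against 1.81% of all loci, and 3 of the 6 were at Junb, 1 at Fosb, 1 at Fos and 1 at Batf. Exact CRE sites were in 3 loci, at Fosb, Jund and Batf (2.05%, 0.43 to 5.89%), against 0.73% of all loci. After the promoter sequences of Fos and Jun had been seen, the CRE was also searched with at most 1 mismatch. It was then in 7 of the 12 promoter loci of the AP-1 genes (58.3%, 27.7 to 84.8%), against 11.0% of all 17049 promoter loci, and the hexamer TGACGT on either strand, which overlaps that search, in 6 of 12 (50.0%, 21.1 to 78.9%), against 9.39%. Without the Fos and Jun loci, which prompted the search, each was in 5 of 9 (55.6%, 21.2 to 86.3%). In the RefSeq promoter table, which spans each annotated start site and held 8 of the 9 genes, none of the 8 had an AP-1, CRE, CArG or TEAD match. Only Batf had the ETS motif CCGGAAG, which was in 8.86% of 32851 promoters.

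Other genes of the pathway were compared in the same windows. Among 12 relatives of the bZIP family (Jdp2, Batf2, Batf3, Atf2, Atf4, Atf7, Maf, Maff, Mafg, Mafk, Creb1 and Crem), PD closed 25 of 106 loci in Hras.E1A (23.6%, 15.9 to 32.8%) and 33 of 106 in Hras.Myc (31.1%, 22.5 to 40.9%). In Hras.E1A this interval lies below the 38.9% of all loci, as at the AP-1 genes, and in Hras.Myc it includes the 38.4%. Batf3, beside Atf3 on the chromosome, closed 5 of 13 and 7 of 13. The windows of these relatives share 8 loci with those of the AP-1 genes. Among 13 kinases and serum response factors upstream of AP-1, PD closed 49 of 121 (40.5%, 31.7 to 49.8%) and 44 of 120 (36.7%, 28.1 to 46.0%), which is near the 38.9% and 38.4% of all loci. Elk3, an ETS-domain partner of SRF, closed the largest number, 12 of 15 and 9 of 15, though in Hras.Myc the share at Mapk8, 6 of 9, was larger. At Rps6ka1, a kinase activated by ERK, 7 of 11 and 6 of 11 closed, whereas Map2k1 and Map2k2, which encode the MEK kinases that PD inhibits, closed 1 of 8 and 2 of 9, and 1 of 12 and 2 of 14.

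Genes with the most similar pattern were sought among 17709 coding genes with at least 5 loci, by the mean absolute difference, over the 7 lists, of the percent of their loci open. The nearest to Fos was Mreg (3.63 points), to Fosb Keap1 (2.18), to Fosl1 Rnf14 (2.15), to Fosl2 Lgals7 (2.50), to Jund Ints5 (0.97), to Atf3 Ddx27 (2.62) and to Batf Mos (2.06). Prdx5 and Trmt112 were equally near to Junb (1.61), and Pcdha1, Pcdha2 and Pcdha3 to Jun (3.10). These distances are over 7 values from shared catalogues of loci.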

How the data were processed

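ATAC-seq libraries were made from about 50000 cells each. Per the labels and the study's methods, the authors aligned reads with Bowtie2 2.4.5 to mm10, called peaks with MACS2 2.2.7.1 and recovered weak peaks from positions found in other samples, so the lists are not independent. Each group has 1 deposited list with its replicates pooled, and the sources used here do not say how. The deposited score of each peak has no stated scale or normalization, and it was used as it stands and as a percentile within its list. Read depth is unknown.

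Peaks overlapping by at least 1 bp were merged over the 7 lists. Gene positions came from GENCODE M21 basic annotation and sequence from GRCm38, the assembly called mm10, and 0 peaks lay past a chromosome end. Coordinates count from 1. No locus lay in the windows of 2 of the 9 genes. A promoter locus has a base within 1000 bp of an annotated start site. Score percentiles, shares and exact intervals were computed with Python 3.11.15, NumPy 2.4.6, SciPy 1.17.1 and pysam 0.24.0, and the procedure was tested on simulated peak lists. No p-values were computed, since each group had 1 list.

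The 9 genes, the gene lists and the rules were chosen with earlier results of these data known. The loci named were all promoter loci, those closed or opened with PD in both lines, and up to 2 others per gene with the highest score in any list. The list of bZIP relatives leaves out 1 gene, which is not reported here. The pathway genes given by value, the Fos loci opened with PD in Hras.Myc, the loci with a peak only in Hdac7SA.Mef2d, the CRE search with 1 mismatch, the hexamer search and the comparisons by family, distance and GC content were added after seeing the data. Promoter sequences were cut at the start site so that no untranslated region is printed. Alternatives were other windows (10 and 100 kb, or no flank), a cover of 50% of the locus, lists of equal size, lists without the lowest-scoring 25% of peaks, a catalogue without the TSA lists, a tolerance of 500 bp, removal of promoter loci or of single genes, and other motif windows.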

Additional observations from a re-analysis of the deposited data

Results flagged for a closer look

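The locus 37513 bp upstream of Fos (chr12:85436178-85436577) moved in opposite directions with PD in the Hras lines. It scored 3.79 in untreated Hras.E1A and had no peak with PD, whereas it had no peak in untreated Hras.Myc and scored 6.18 there with PD. With TSA both lines had a peak there, Hras.E1A at 4.09 and Hras.Myc at 2.26, and Hdac7SA.Mef2d scored 8.33. It was the only locus of the 146 closed in a line and opened in the other (0.685%, 0.0173 to 3.76%), against 1.16% of all loci. With 1 list per group this difference was not tested.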

How the results depend on the processing

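Over 24 results and 276 alternative settings, 252 values moved by less than the interval of the reported value, 23 moved by more and 1 reversed. No paired analysis was possible because each group has 1 pooled peak list, and no replicate could be left out for the same reason. With lists of equal size, cut to the 56774 highest-scoring peaks, the share opened with PD was 52.4% in Hras.E1A and 63.8% in Hras.Myc, beside 31.5% and 31.7% of all loci. An untreated peak below the cut then counts as no peak, so loci with such a peak are among those called opened. TSA then closed 13.1% and 18.2%, beside 20.2% and 22.0%. The median change in percentile with PD became 22.7 points in Hras.E1A, beside 11.3 over all loci, and reversed to 6.13 points in Hras.Myc, beside 6.0, and promoters of 3 genes were open in Hdac7SA.Mef2d. Without the lowest-scoring 25% of each list, PD closed 30.2% in Hras.Myc, beside 43.0% of all loci. TSA closed 13.2% and 22.2% in the lines, beside 20% and 21.7%, and opened 48.0% in Hras.Myc, beside 17.9%. Untreated peaks that were left out count as no peak there too. Loci open only in Hdac7SA.Mef2d were 28.0% (18.2 to 39.6%), with no share of all loci at that setting. Of loci closed with PD in Hras.Myc, 21.1% held an AP-1 motif, and of kept loci 25.0%, so the closed share was no longer the larger. Promoters of 5 genes were open in Hras.Myc. How many of all promoters were open at this setting or with lists of equal size is not given. Within 10 kb, TSA in Hras.Myc closed 2.94% (0.0744 to 15.3%) and opened 55.6% (21.2 to 86.3%), beside 16.4% and 17.7% of all loci. Loci open only in Hdac7SA.Mef2d were 5.88% (0.720 to 19.7%), beside 42.6% of all loci. These shares of all loci are at any distance from genes, and none is given for loci within 10 kb. In gene bodies and promoters alone, PD opened 0% in both lines (0 of 2 and 0 of 4, up to 84.2% and 60.2%), TSA closed 15.0% (3 of 20) and opened 0% (0 of 2) in Hras.E1A and opened 75.0% in Hras.Myc (3 of 4, 19.4 to 99.4%), and 0% were open only in Hdac7SA.Mef2d. For loci nearest an AP-1 gene, PD opened 2 of 17 in Hras.E1A (11.8%, 1.46 to 36.4%), beside 14.9% of all loci. TSA closed 1 of 39 of them in Hras.Myc (2.56%, 0.0649 to 13.5%), beside 16.4%. The cause of these shifts was not tested. Many AP-1 gene loci score low in their lists, and depth, which is unknown, limits what a missing peak means.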
